A study of Mus musculus with 18 samples.

Results

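The 10 genes described here are those of hepcidin and iron handling, taken by gene symbol from the 21441 genes listed in each of the deposited expression tables: Hamp, Hamp2, Slc40a1, Tfrc, Tfr2, Fth1, Ftl1, Trf, Slc11a1 and Cp. The list was set by gene symbol, with earlier results of these data known, and all of them were found in both tables, Tfr2 under its older symbol Trfr2. The tables hold RNA sequencing of 18 mouse libraries, 9 from liver and 9 from macrophages, with 3 control, 3 LPS and 3 LPS+MIC-1 libraries of each. LPS, lipopolysaccharide, is the endotoxin of Gram-negative bacteria, and MIC-1, moringa isothiocyanate-1, is an isothiocyanate prepared from seeds of Moringa oleifera. The livers came from male wild type C57BL/6 mice whose age is not given. Control mice received vehicle and a saline injection, LPS mice were injected intraperitoneally with LPS at 10 mg/kg, and LPS+MIC-1 mice were gavaged with MIC-1 at 80 mg/kg in 10% DMSO over 3 days before the same LPS injection, and livers were taken at 16 h. The macrophages were RAW264.7 cells, a single mouse macrophage-like line, kept as solvent controls, treated with LPS, or treated with LPS and 10 µM MIC-1. The labels of the macrophage libraries repeat the mouse strain and mouse doses, and the LPS concentration of the sequenced cultures is not given in the sources used here. Each liver library came from a separate mouse. Nothing in the sources used here says whether the macrophage libraries came from separate cultures, so p-values there measure only the spread between these libraries, which may be technical. The comparisons ask how LPS changed each gene and whether MIC-1 altered that response.

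Hepcidin, the peptide encoded by Hamp, is made mainly by hepatocytes and lowers iron release into plasma by binding ferroportin (Slc40a1), the exporter through which macrophages and other cells release iron. In the hepatocyte, Hamp transcription is driven by BMP-SMAD signalling, which reports iron, and by IL-6 and STAT3 signalling, which reports inflammation. Inside cells, iron regulatory proteins bind hairpins in the untranslated regions of several iron mRNAs. At low iron, this binding blocks translation of ferritin and ferroportin and stabilises the mRNA of the transferrin receptor.

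The promoters of Hamp and Hamp2, the neighbouring mouse copy of the hepcidin gene, are shown because the genes changed to different extents in liver. Each is the 250 bases before the annotated start, credited to RefSeq (promoter table on GRCm38.p6), and each matched exactly 1 place on chromosome 7 of the mm9 (NCBIM37) build, on the minus strand, at chr7:31729049-31729298 for Hamp and chr7:31709201-31709450 for Hamp2. Capitals mark GGCGCC, the core of the BMP-responsive element, and TTCNNNGAA, the STAT motif, both searched on both strands.
Hamp: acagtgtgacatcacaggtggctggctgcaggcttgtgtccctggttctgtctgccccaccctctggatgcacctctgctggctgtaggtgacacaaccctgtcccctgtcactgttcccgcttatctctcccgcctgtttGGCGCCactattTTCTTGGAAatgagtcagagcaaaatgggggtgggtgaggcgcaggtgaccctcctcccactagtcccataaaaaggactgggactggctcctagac
Hamp2: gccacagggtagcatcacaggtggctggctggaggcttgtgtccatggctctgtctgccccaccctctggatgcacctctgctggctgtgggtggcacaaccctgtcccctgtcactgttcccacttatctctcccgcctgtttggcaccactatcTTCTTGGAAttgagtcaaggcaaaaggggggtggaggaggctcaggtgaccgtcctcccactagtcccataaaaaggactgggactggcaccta

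Over 247 aligned bases the promoters were identical at 227, or 91.9%. Both hold TTCTTGGAA, starting 97 bases before the start of Hamp and 94 bases before that of Hamp2. The GGCGCC core of Hamp, 109 bases before its start, carries the substitution G4A in Hamp2, counted from the first base of the core. GGCGCC occurs in 9.65% and TTCNNNGAA in 7.04% of the 32536 mouse promoter windows of this length, and among the 8 members with a promoter in the table the only other match was a GGCGCC in a Tfrc promoter. A match is a description of the sequence and not a measured binding site.

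The iron-responsive hairpins of 4 members are shown because they are the best known shared control of this gene group, each as 30 bases of mm9 with the loop CAGTGN in capitals.
Fth1: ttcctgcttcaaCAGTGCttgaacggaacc
Ftl1: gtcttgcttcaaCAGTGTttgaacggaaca
Slc40a1: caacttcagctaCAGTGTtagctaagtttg
Tfrc: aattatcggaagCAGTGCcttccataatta

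The first 3 lie in the 5′ UTR, at chr19:10057222-10057251 on the plus strand for Fth1, chr7:52715148-52715177 on the minus strand for Ftl1 and chr1:45982309-45982338 on the minus strand for Slc40a1. The Tfrc hairpin, at chr16:32631305-32631334 on the plus strand, is the first of 4 such matches in the Tfrc 3′ UTR. The same hairpin pattern was found in the 5′ UTR of 22 of 19854 genes (0.111%) and in the 3′ UTR of 92 of 19915 genes (0.462%). The other 6 members had no match.

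Values are FPKM, fragment counts scaled to transcript length and library depth, so levels can be compared between genes of a table. Each table was normalised on its own, and levels are set across tables as a description. Differences were tested with limma on log2(FPKM + 0.5), a scale that understates the change of low genes, and a gene was called at a Benjamini-Hochberg adjusted p below 0.05 over all genes with a mean FPKM above 1. Libraries are numbered by their order in each table, since the column names carry no replicate number. The steps between low values gave an estimated depth of 17310000 to 22290000 reads per macrophage library and of 4340000 to 17880000 per liver library, with the lowest depths in liver controls 2 and 3 (4430000 and 4340000 reads). The macrophage library labelled LPS 2 stood with the controls: it correlated with the control mean at r = 0.989, where LPS libraries 1 and 3 gave 0.849 and 0.848, so macrophage tests are given with and without it. In liver, libraries 1 and 3 of the LPS and LPS+MIC-1 groups correlated at 0.979 within each group, and library 2 of both stood apart (0.889 to 0.935). The summed level of 7 hepatocyte markers was high in all livers (38832 to 98541 FPKM) and low in macrophages (2.48 to 20.2 FPKM, with Hnf4a and Asgr1 at 0), where the 6 of 7 listed macrophage markers that are in the table were all detected. Not each marker was high in each liver. Hnf4a stood at 3.53 FPKM in control 3, against 52.9 and 56.6 in controls 1 and 2, and Asgr1 was listed at 0 in some livers.

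In liver, both hepcidin genes and ferroportin were lower after LPS, and Tfrc, the ferritin heavy chain, transferrin, Slc11a1 and ceruloplasmin were higher. Tfr2 was also called higher, but from a listed 0 in all 3 controls, which can be a failed estimate. The calls of Slc40a1, Tfrc, Trf and Slc11a1 did not hold in every refit that left out 1 library. All 10 members could be tested. In the LPS livers 9 of them were called, 6 above and 3 below control, where 34.7% of the 10147 genes tested were called (19.2% higher, 15.5% lower). These 9 were also the members whose groups did not overlap, which held for 45% of all genes. The median log2 difference of the members was 1.08 and that of all tested genes 0.15. When each library was rescaled to an equal FPKM total (the same sum), the median of all genes moved from 0.15 to -0.18 and the share of calls that were higher from 55.3% to 31.2%, and Tfrc and Slc11a1 were no longer called (limma adjusted p = 0.108 and 0.127). In these bulk samples, fewer cells of a type and less RNA per cell cannot be told apart.

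Hamp, the hepcidin gene (chr7:31727390-31729036), stood at 7315, 5854 and 5794 FPKM in the control livers, at 1593, 1874 and 1692 after LPS, and at 5722, 2008 and 5998 after LPS+MIC-1. The LPS livers were all below the controls, and the LPS+MIC-1 livers split, with libraries 1 and 3 near the control range and library 2 near the LPS range. Hamp fell by 1.87 ± 0.41 (SE) on the log2 scale after LPS (limma adjusted p = 0.0114), a 3.66-fold lower level. Between LPS+MIC-1 and LPS it differed by 1.26 ± 0.41, higher in 3 of 3 libraries than any LPS library, but this did not pass the correction (limma adjusted p = 0.997). Without library 2 of both groups, the difference was 1.83 (limma adjusted p = 0.0199). That setting was chosen after the data were seen, keeps only libraries 1 and 3, and removes the LPS+MIC-1 library near the LPS range. No refit that left out 1 library called Hamp in this comparison (lowest limma adjusted p = 0.179).

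Hamp2 (chr7:31707391-31709200), whose peptide is not known to share the iron role of hepcidin, stood at 395, 447 and 481 FPKM in the control livers. After LPS it stood at 3.41, 5.24 and 0.925 FPKM, and after LPS+MIC-1 at 3.49, 2.62 and 3.68. Both treated groups lay far below the controls and overlapped each other. The fall was 7.12 ± 0.44 on the log2 scale after LPS (limma adjusted p = 0.000204) and 6.88 ± 0.44 after LPS+MIC-1 against control (limma adjusted p = 0.000213), where the control libraries are the same. The estimated reads behind these values were 696 to 1100 in the controls and 4 to 17 in the treated livers.

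Hamp2 relative to Hamp was 5.40, 7.63 and 8.30% in the control livers, 0.214, 0.280 and 0.0547% after LPS and 0.0610, 0.131 and 0.0613% after LPS+MIC-1. The ratio of both treated groups lay below every control without overlap, so Hamp2 fell more than Hamp (log2 difference of the ratio -5.56 after LPS, exact two-sided permutation p = 0.1, the smallest that 3 against 3 libraries allow). LPS and LPS+MIC-1 overlapped in this ratio (exact permutation p = 0.4). Between the transcripts of the pair, 117 runs of 31 bases are shared (32.3% of those of Hamp and 28.7% of those of Hamp2), so reads of the copies could be split between them, and with both genes summed the LPS fall was 1.97 on the log2 scale (limma adjusted p = 0.00953).

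**Figure D1:**
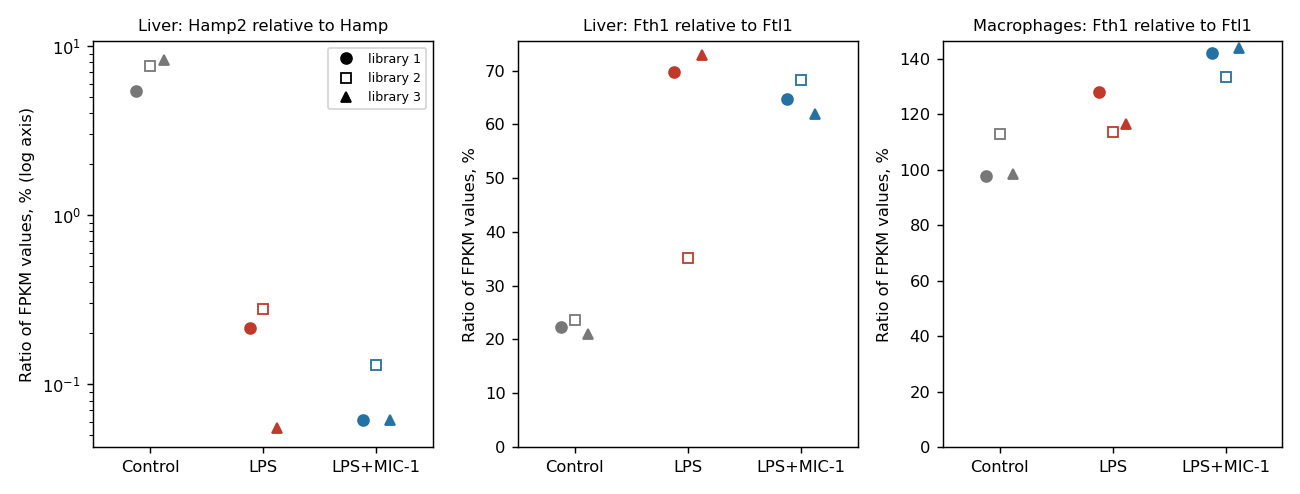
FPKM of one gene as a percentage of another in each library: Hamp2 relative to Hamp in liver (log axis), Fth1 relative to Ftl1 in liver, and Fth1 relative to Ftl1 in macrophages. Points are single libraries, with library 2 open. Control livers sit at 5.40 to 8.30% for Hamp2 and every treated liver at 0.280% or below, and the LPS livers at 35.1 to 72.8% for Fth1 sit above the controls at 20.9 to 23.5%.

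Ferroportin, Slc40a1 (chr1:45964915-45982439), whose 5′ hairpin is printed above, stood at 15.5, 15.2 and 16.3 FPKM in control livers, at 4.13, 9.51 and 4.8 after LPS and at 20.4, 8.0 and 19.5 after LPS+MIC-1. It was lower in every LPS liver than in any control, and LPS+MIC-1 libraries 1 and 3 were above all controls, with library 2 inside the LPS range. It fell by 1.37 ± 0.40 on the log2 scale after LPS (limma adjusted p = 0.0296), a call that was lost in 5 of the 9 refits that left out 1 library (adjusted p = 0.0510 to 0.103). The LPS+MIC-1 against LPS difference was 1.29 ± 0.40 (limma adjusted p = 0.997), and without library 2 of both groups it was 2.05 (limma adjusted p = 0.00561). That last setting, chosen after the data were seen, removes the LPS+MIC-1 library inside the LPS range. No refit that left out 1 library called this difference (lowest limma adjusted p = 0.117). Kupffer cells, the liver macrophages, are a main site of ferroportin in this organ: their defining markers Clec4f and Vsig4 stood at 13 to 30.1 and 3.02 to 6.70 FPKM in controls, at 2.85 to 6.32 and 1.22 to 1.5 after LPS, and at 4.33 to 4.83 and 0.647 to 1.72 after LPS+MIC-1. Marco and C1qa, also Kupffer markers, went the other way, from 2.18 to 6.79 and 13.9 to 25.9 FPKM in controls. They stood at 23.1 to 40.4 and 30.3 to 40.9 after LPS, and at 38.4 to 75.6 and 42.3 to 55.5 after LPS+MIC-1. Csf1r, Timd4, Cd5l and Emr1 overlapped between control and LPS livers. The summed level of all 8 Kupffer markers was 58.6 to 76.7, 74.6 to 105 and 98.3 to 158 FPKM in the same groups. Of the sinusoidal endothelium markers, Clec4g stood at 27.5, 25.8 and 23.6 FPKM, then 1.28, 7.04 and 0.824, then 15.9, 2.06 and 14.8. Kdr stood at 3.18, 3.26 and 3.34, then 0.709, 1.71 and 0.649, then 3.59, 1.65 and 3.07. Lyve1 and Pecam1 were higher in every LPS liver than in any control, and Stab2 and Fcgr2b overlapped. The part of cell composition in the ferroportin result was not tested.

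Tfrc (chr16:32609006-32632880), the receptor that takes up transferrin-bound iron, stood at 3.07, 2.95 and 3.5 FPKM in control livers, at 10.2, 3.96 and 11.7 after LPS and at 5.77, 8.25 and 5.60 after LPS+MIC-1. Every treated liver was above every control. The rise after LPS was 1.19 ± 0.36 on the log2 scale (limma adjusted p = 0.0348), was 1.64 without LPS library 2 (limma adjusted p = 0.00111), and was lost in 7 other refits that left out 1 library (adjusted p = 0.0530 to 0.127). Against control, LPS+MIC-1 differed by 0.92 ± 0.36 (limma adjusted p = 0.0757), and by the same amount with limma adjusted p = 0.00641 when LPS library 2 was left out of the fit.

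Tfr2 (chr5:138011079-138028709), the hepatocyte receptor that senses transferrin iron upstream of hepcidin, was listed at 0 in all 3 control livers. It stood at 12.9, 5.40 and 10.4 FPKM after LPS and at 12.7, 5.48 and 13.4 after LPS+MIC-1. It was called in both treated groups against control (limma adjusted p = 0.000508 and 0.000476), with no fold given because the controls are at 0. A listed 0 can be a failed estimate in these tables, since Asgr1, a hepatocyte gene, was also listed at 0 in control livers 2 and 3 and in library 2 of LPS and of LPS+MIC-1, and 256, 473 and 571 of the tested genes were listed at 0 in the controls against 83 to 249 after LPS.

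The ferritin chains parted in liver. Fth1 (chr19:10057193-10059582), the ferritin heavy chain with ferroxidase activity, stood at 1688, 1198 and 1068 FPKM in controls, at 3749, 2490 and 4623 after LPS and at 3837, 4890 and 3929 after LPS+MIC-1. It rose by 1.44 ± 0.30 on the log2 scale after LPS (limma adjusted p = 0.00953) and by 1.70 ± 0.30 after LPS+MIC-1 against the same controls (limma adjusted p = 0.00491). Ftl1 (chr7:52713314-52715254), the ferritin light chain, stood at 7571, 5092 and 5101 FPKM in controls, at 5379, 7097 and 6348 after LPS and at 5924, 7158 and 6339 after LPS+MIC-1, and the groups overlapped. Its difference after LPS was 0.10 ± 0.25 (limma adjusted p = 0.773), and -0.26 with libraries rescaled to the same sum.

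Fth1 relative to Ftl1 was 22.3, 23.5 and 20.9% in control livers, 69.7, 35.1 and 72.8% after LPS and 64.8, 68.3 and 62.0% after LPS+MIC-1. All treated livers lay above the controls (exact permutation p = 0.1 for each group against control, the smallest possible). The ratio is free of the scaling between libraries. The treated groups overlapped (exact permutation p = 1).

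Trf (chr9:103106331-103132774), plasma transferrin, had the highest mean level of the members in both treated groups, although Ftl1 was higher in library 2 of each. It stood at 3037, 2148 and 1407 FPKM in controls, at 7152, 4476 and 8585 after LPS and at 12817, 6530 and 12998 after LPS+MIC-1. It rose by 1.63 ± 0.41 on the log2 scale after LPS (limma adjusted p = 0.0187) and by 2.30 ± 0.41 after LPS+MIC-1 against control (limma adjusted p = 0.00535). The LPS call was lost in 4 refits that left out 1 library (adjusted p = 0.0549 to 0.0796), and a second, overlapping gene model carries the same symbol in the mm9 annotation.

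Cp (chr3:19857054-19909145), ceruloplasmin, the plasma ferroxidase that works with ferroportin, stood at 603, 409 and 349 FPKM in controls, at 999, 905 and 887 after LPS and at 983, 890 and 976 after LPS+MIC-1. Both treated groups lay above every control and overlapped each other. The rise was 1.07 ± 0.23 on the log2 scale after LPS (limma adjusted p = 0.0110) and 1.10 ± 0.23 after LPS+MIC-1 (limma adjusted p = 0.00865, and 0.0827 with libraries rescaled to the same sum).

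Slc11a1 (chr1:74421777-74432636), the phagosomal metal transporter of macrophages and neutrophils, stood at 2.88, 5.80 and 6.71 FPKM in control livers, at 10.5, 11.7 and 10.3 after LPS and at 6.19, 8.54 and 7.86 after LPS+MIC-1. LPS livers were above both other groups without overlap. The rise after LPS was 1.08 ± 0.28 on the log2 scale (limma adjusted p = 0.0211), lost without LPS library 1 or 3 (adjusted p = 0.0619 and 0.0641). LPS+MIC-1 differed from LPS by -0.50 ± 0.28 (limma adjusted p = 0.997). The 7 neutrophil markers in the table summed to 37.0 to 52.4 FPKM in controls, 351 to 448 after LPS and 191, 460 and 203 after LPS+MIC-1, and the 6 monocyte markers to 3.86 to 8.73, 81.0 to 113 and 68.7 to 84.6. Most of the LPS sums came from S100a8 (228 to 286 FPKM) and Plac8 (59.2 to 73.9 FPKM). The neutrophil marker Cxcr2 fell, from 26.5 to 42.6 FPKM in controls to 3.89 to 10.1 after LPS and 3.59 to 7.79 after LPS+MIC-1. The monocyte marker Fn1 overlapped between controls and LPS livers. The part of neutrophils and monocytes in the Slc11a1 result was not tested.

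**Figure D2:**
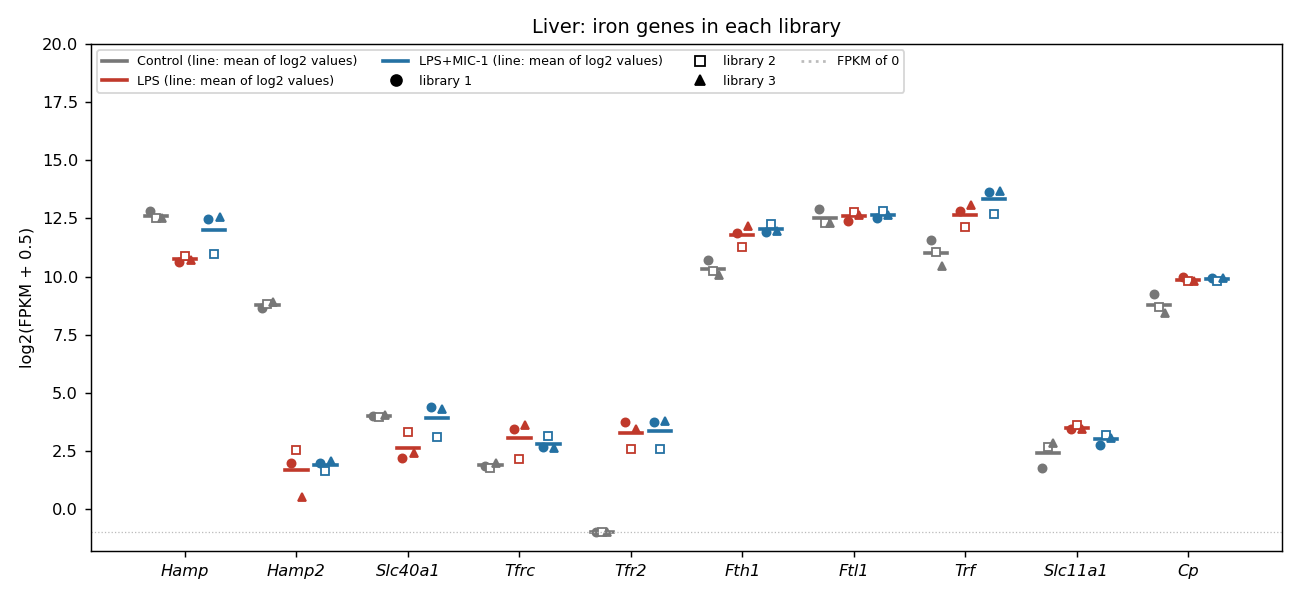
Level of each member in the 9 liver libraries, as log2(FPKM + 0.5), with the genes along the horizontal axis. Points are libraries, the short line is the mean of the log2 values of a group and the dotted line marks FPKM 0. Hamp and Slc40a1 show LPS+MIC-1 libraries 1 and 3 at or near the control level with library 2 near the LPS level, Hamp2 is low in all 6 treated livers, and Tfr2 is at 0 in the 3 controls.

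Between LPS+MIC-1 and LPS livers, limma called no member and none of the 10147 genes tested (percent called 0, smallest adjusted p 0.0546), and 364 genes (3.59%) had an unadjusted p below 0.05. Hamp and Slc11a1 were the 2 members whose groups did not overlap, where 9.75% of all genes tested did not. Hamp and Slc40a1 were the members with an unadjusted p below 0.05. Leaving out library 2 of both groups gave calls for Hamp, Slc40a1 and Tfrc, the last at -0.89 (limma adjusted p = 0.0413), where 3.68% of all genes were called. That setting was chosen after the data were seen, and no refit that left out 1 library called any of these genes. Against control, LPS+MIC-1 gave calls for 5 members, 4 higher (Tfr2, Fth1, Trf and Cp) and 1 lower (Hamp2), where 36.4% of all genes were called (20.1% higher, 16.3% lower), and rescaling to the same sum moved the share of calls that were higher from 55.2% to 17.6%. In that comparison Hamp differed by -0.62 ± 0.41 (limma adjusted p = 0.256), but was called at -1.27 with libraries rescaled to the same sum and at -1.54 with a GC and length trend removed (limma adjusted p = 0.0249 and 0.0198). Slc40a1 differed by -0.08 ± 0.40 (limma adjusted p = 0.881) and Slc11a1 by 0.57 ± 0.28 (limma adjusted p = 0.140). In 6 members the LPS+MIC-1 and control livers did not overlap, as in 54.6% of all genes. The LPS and LPS+MIC-1 values against control rest on the same 3 control livers.

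In RAW264.7 macrophages the members formed another pattern. In LPS libraries 1 and 3, the ferritin chains, Hamp, Slc11a1 and Cp were above every control and Tfrc and Slc40a1 below every control, while LPS library 2 stood at or near the controls for each of them. Hamp2 and Tfr2 were below the level tested, Hamp2 at 0 to 0.786 FPKM (at most an estimated 3 reads) and Tfr2 listed at 0 in all 9 libraries, which leaves 8 of 10 members. With all 9 libraries, limma called 0 of the 8 between LPS and control and 0 of 9905 genes (0% called, smallest adjusted p 0.0777), while 4928 genes (49.8%), 5 of them members, had an unadjusted p below 0.05. Without LPS library 2, 7 of 8 members were called, 5 higher and 2 lower, where 75.2% of all genes were called (36.9% higher, 38.2% lower). The groups did not overlap in 5 of the 8 members with all 9 libraries (33.3% of all genes) and in 7 without that library (85.6% of all genes). The share of members called was near that background, and the median log2 difference was 1.63 over the 8 members and -0.02 over all genes. Rescaling the 8 libraries to the same sum moved the median of all genes to -0.93 and the share of calls that were higher from 49.1% to 14.3%.

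Hamp stood at 0.323, 0.177 and 0.339 FPKM in control macrophages, at 51.2, 0.526 and 40.7 after LPS and at 0.587, 2.15 and 0.691 after LPS+MIC-1. The estimated reads behind these were 2, 1 and 2 in the controls, 181, 3 and 153 after LPS and 3, 11 and 3 after LPS+MIC-1, so the fitted difference depends on the pseudocount. After LPS it was 4.06 ± 1.33 on the log2(FPKM + 0.5) scale (limma adjusted p = 0.0777), with 4.88 and 3.55 for pseudocounts of 0.1 and 1, and without LPS library 2 it was 5.89 ± 0.36 (limma adjusted p = 5.48e-06). Against control, LPS+MIC-1 differed by 0.96 ± 1.33 (limma adjusted p = 0.627), and by 0.96 ± 0.33 without LPS library 2 (limma adjusted p = 0.0349). LPS+MIC-1 differed from LPS by -3.10 ± 1.33 (limma adjusted p = 0.127), and by -4.94 ± 0.36 without LPS library 2 (limma adjusted p = 1.84e-05). Even its highest macrophage level, 51.2 FPKM, was far below the lowest liver level, 1593. The hepatocyte markers summed to 20.2, 4.29 and 9.34 FPKM in the LPS macrophages against 2.48 to 7.72 in controls, with Alb at 5.46, 2.28 and 2.79 and both Hnf4a and Asgr1 at 0.

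Ferroportin was the 1 member called between LPS+MIC-1 and LPS macrophages with all 9 libraries in the fit. Slc40a1 stood at 1.68, 1.72 and 1.36 FPKM in controls, at 0.873, 2.07 and 0.714 after LPS and at 5.24, 8.81 and 5.92 after LPS+MIC-1. Every LPS+MIC-1 library was above every other library. It rose by 2.11 ± 0.31 on the log2 scale against LPS (limma adjusted p = 0.00411) and by 1.75 ± 0.31 against control (limma adjusted p = 0.00703), where 21.6% and 24.8% of all genes were called (10.2% and 11.8% higher, 11.4% and 13% lower). With libraries 1 and 3 of each group averaged, the rises were 2.04 and 1.83 and both calls were lost (limma adjusted p = 0.194 and 0.169). In that setting 0 of 9905 genes were called in either comparison. Without LPS library 2, the rise was 2.44 ± 0.21 against LPS and 1.75 ± 0.19 against control (limma adjusted p = 3.89e-05 and 0.000155), and the fall from control to LPS was 0.69 ± 0.21 on the log2 scale (limma adjusted p = 0.0185).

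Tfrc stood at 70.1, 46.9 and 72.9 FPKM in control macrophages, at 27.4, 44.9 and 28.0 after LPS and at 40.2, 67.0 and 39.7 after LPS+MIC-1. All LPS libraries were below all controls, by a narrow margin for LPS library 2. The difference after LPS was -0.92 ± 0.29 (limma adjusted p = 0.0777), and -1.15 ± 0.26 without LPS library 2 (limma adjusted p = 0.00466). LPS+MIC-1 differed from LPS by 0.54 ± 0.29 (limma adjusted p = 0.206), and by 0.77 ± 0.26 without LPS library 2 (limma adjusted p = 0.0325). Against control it differed by -0.38 (limma adjusted p = 0.360 with that library and 0.194 without it).

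The ferritin genes were the most abundant members in macrophages, with like patterns across the libraries. Fth1 stood at 6446, 9556 and 6454 FPKM in controls, at 89994, 10125 and 79755 after LPS and at 27979, 23895 and 27698 after LPS+MIC-1. Ftl1 stood at 6584, 8460 and 6562 FPKM in controls, at 70207, 8903 and 68495 after LPS and at 19663, 17913 and 19224 after LPS+MIC-1. LPS libraries 1 and 3 were highest, LPS+MIC-1 lay between them and the controls, and LPS library 2 lay just above the highest control. Together the chains took 14.1, 3.18 and 13.1% of the FPKM sum after LPS, 2.32 to 3.04% in controls and 6.41 to 7.33% after LPS+MIC-1, while in all livers they took 0.952 to 1.24%.

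With all 9 libraries, neither ferritin gene was called in any of the 3 comparisons, and after LPS the differences were 2.5 ± 0.76 for Fth1 and 2.29 ± 0.72 for Ftl1 (limma adjusted p = 0.0777 for both). Without LPS library 2, Fth1 rose by 3.53 ± 0.18 and Ftl1 by 3.28 ± 0.12 after LPS (limma adjusted p = 2.77e-06 and 9.45e-07). From LPS to LPS+MIC-1, without that library, Fth1 fell by 1.68 ± 0.18 and Ftl1 fell by 1.87 ± 0.12 on the log2 scale (limma adjusted p = 0.000116 and 1.10e-05). Against control, LPS+MIC-1 stayed higher by 1.85 for Fth1 and 1.40 for Ftl1 (limma adjusted p = 5.74e-05 and 3.24e-05 without LPS library 2, and 0.110 and 0.190 with it). Fth1 relative to Ftl1 was 97.9, 113 and 98.3% in controls, 128, 114 and 116% after LPS and 142, 133 and 144% after LPS+MIC-1, and the 3 groups did not overlap (exact permutation p = 0.1 for each pair, the smallest possible). The margin between controls and LPS was narrow, with control library 2 at 112.95% and LPS library 2, which stood with the controls, at 113.73%.

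Slc11a1, which is expressed by macrophages, stood at 65.9, 95.6 and 68.2 FPKM in controls, at 264, 93.1 and 256 after LPS and at 376, 382 and 380 after LPS+MIC-1. The LPS+MIC-1 libraries were close to each other and above every other library. It rose by 2.32 ± 0.38 on the log2 scale from control to LPS+MIC-1 (limma adjusted p = 0.00488, and 9.66e-06 without LPS library 2). With libraries 1 and 3 of each group averaged, that rise was 2.24 and was not called (limma adjusted p = 0.163). The difference against LPS was 1.04 ± 0.38 (limma adjusted p = 0.0826), and 0.54 ± 0.15 without LPS library 2 (limma adjusted p = 0.0120). The difference from control to LPS was 1.29 ± 0.38 (limma adjusted p = 0.0777), and 1.78 ± 0.15 without that library (limma adjusted p = 1.97e-05).

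Cp stood at 3.81, 4.0 and 3.53 FPKM in control macrophages, at 10.9, 4.09 and 12.1 after LPS and at 5.79, 1.59 and 5.45 after LPS+MIC-1. It was highest in LPS libraries 1 and 3, and the LPS+MIC-1 libraries spread across the controls. After LPS it differed by 1.03 ± 0.50 (limma adjusted p = 0.128), and by 1.49 ± 0.43 without LPS library 2 (limma adjusted p = 0.0139), a call lost when those 8 libraries were rescaled to the same sum (0.57, adjusted p = 0.252). LPS+MIC-1 differed from LPS by -1.03 ± 0.50, and by -1.49 ± 0.43 without that library (limma adjusted p = 0.169 and 0.0159). The same rescaling of the 8 libraries also lost this Cp call (-0.74, limma adjusted p = 0.152). Trf stood at 0.987 to 2.66 FPKM in all 9 macrophage libraries, and was not called in any comparison with or without LPS library 2 (limma adjusted p = 0.159 to 0.823). Its difference from control to LPS was 0.20, or -0.31 with the 9 libraries rescaled to the same sum, and was called at -0.68 when the 8 libraries were so rescaled (limma adjusted p = 0.0415).

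**Figure D3:**
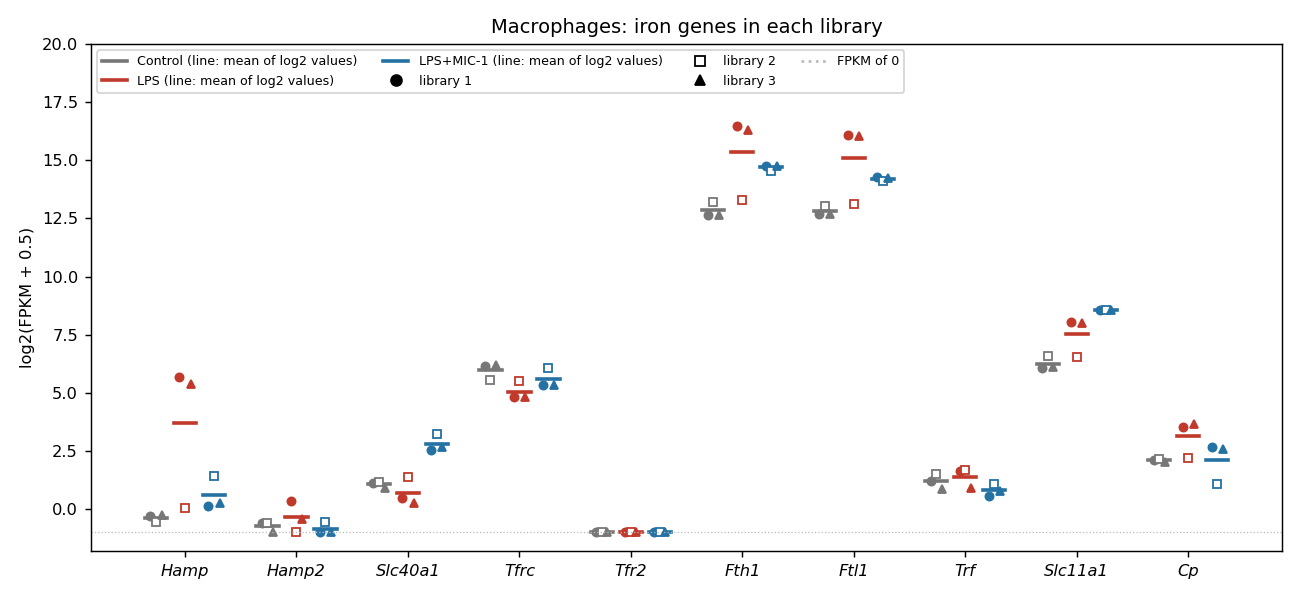
Level of each member in the 9 macrophage libraries, as log2(FPKM + 0.5), with the genes along the horizontal axis. Points are libraries, the short line is the mean of the log2 values of a group and the dotted line marks FPKM 0. LPS library 2 sits with the controls in the panels of Hamp, Fth1, Ftl1, Slc11a1 and Cp, and Slc40a1 is highest in the 3 LPS+MIC-1 libraries at 5.24 to 8.81 FPKM.

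Over the 8 members tested in macrophages, limma called 1 between LPS+MIC-1 and LPS (Slc40a1) and 2 between LPS+MIC-1 and control (Slc40a1 and Slc11a1). Without LPS library 2, these counts were 7 (3 higher, 4 lower) where 68% of all genes were called (34% higher, 34.1% lower), and 5 (all higher) where 60.3% were called (28.1% higher, 32.2% lower). The groups did not overlap in 2 and 5 members in these comparisons with all 9 libraries, as in 36.1% and 66.4% of all genes, and in 7 and 5 without LPS library 2, as in 80.3% and 66.4%. Rescaling all 9 libraries to the same sum moved the share of calls that were higher between LPS+MIC-1 and LPS from 47.2% to 77.6%, and Slc11a1 was then also called there (1.53, limma adjusted p = 0.00226).

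**Figure D4:**
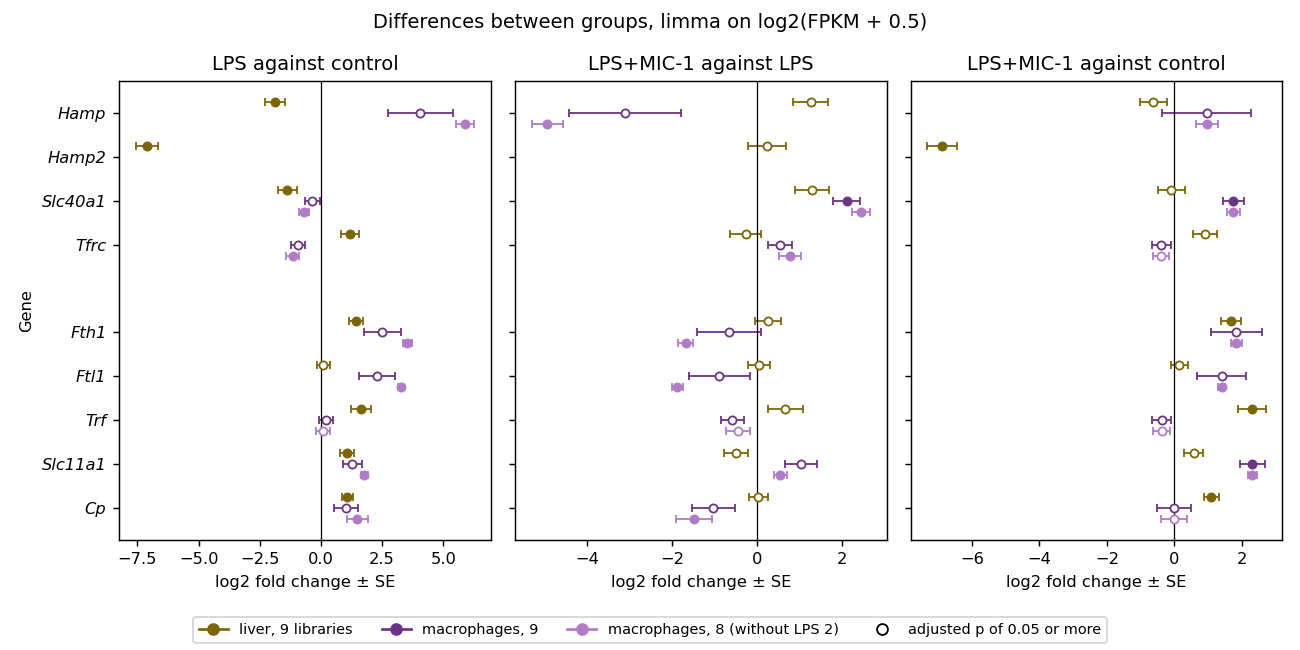
Log2 differences of the members with their SE for LPS against control, LPS+MIC-1 against LPS and LPS+MIC-1 against control, in liver, in all 9 macrophage libraries and in the 8 without LPS library 2. Open symbols have a limma adjusted p of 0.05 or more, and Tfr2 is left out because its controls are at 0. After LPS, Hamp sits at -1.87 in liver and at 4.06 and 5.89 in macrophages, and Tfrc at 1.19 in liver and at -0.92 and -1.15 in macrophages.

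Other iron genes were taken from 7 lists of 85 genes, of which 83 are in the tables, 70 could be tested in liver and 59 in macrophages. In liver 32 of 70 (45.7%) were called after LPS, of which 23 rose and 9 fell, where 34.7% of all genes were called (19.2% higher, 15.5% lower), with a median log2 difference of 0.26 against 0.15 for all genes. None of the 70 was called between LPS+MIC-1 and LPS (limma), and between LPS+MIC-1 and control 29 (41.4%) were called, 24 higher and 5 lower, where 36.4% of all genes were called. Of the BMP-SMAD and transferrin-sensing genes that control hepcidin, 3 of 17 (17.6%) were called after LPS, 2 higher and 1 lower, against 34.7% of all genes, with a median of 0.04. The genes called were Fgl1, which encodes a hepatokine that blocks BMP signals to hepcidin (3.5 ± 0.33), the BMP receptor gene Bmpr1a (0.69 ± 0.22) and Bmp2, a BMP of the liver endothelium (-1.82 ± 0.44), with limma adjusted p = 0.000531, 0.0411 and 0.0162. Tmprss6, the protease that curbs hepcidin, differed by 0.11 ± 0.97, Hfe by 1.88 ± 0.74 and Id1, a BMP target gene, by 0.71 ± 0.31 (limma adjusted p = 0.936, 0.0773 and 0.106), and Bmp6 at 0.457 to 1.01 FPKM was below the level tested.

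Of the inflammatory controls of hepcidin, 6 of 11 (54.5%) were called in liver after LPS, 5 higher and 1 lower, against 34.7% of all genes (19.2% higher, 15.5% lower). Stat3, which carries the IL-6 signal to the hepcidin promoter, stood at 14.4, 13.3 and 8.90 FPKM in controls and at 51.1, 27.4 and 49.9 after LPS, a rise of 1.74 ± 0.30 on the log2 scale (limma adjusted p = 0.00566). Socs3, a STAT3 target and feedback inhibitor, rose by 2.51 ± 0.26 (limma adjusted p = 0.000742). The Socs3 levels were 5.12, 7.74 and 4.78 FPKM in controls, 42.2, 25.2 and 40.4 after LPS and 31.8, 38.7 and 31.3 after LPS+MIC-1. Il6 was at 0 to 0.797 FPKM and below the level tested, and Inhbb, which encodes activin B, differed by 1.23 ± 0.58 (limma adjusted p = 0.126).

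Among iron import genes 5 of 9 (55.6%) were called in liver after LPS, 4 of them higher, and among haem genes 8 of 11 (72.7%), 7 of them higher, against 34.7% of all genes (19.2% higher). Lcn2, which binds bacterial siderophores, stood at 405, 2037 and 35.5 FPKM in controls, at 22434, 18268 and 29552 after LPS and at 27410, 23389 and 29666 after LPS+MIC-1, and rose by 6.21 ± 1.18 on the log2 scale after LPS (limma adjusted p = 0.00732). The ferrireductase Steap4 rose by 4.43, haptoglobin (Hp) by 3.90 and hemopexin (Hpx), which carries free haem, by 3.31 (limma adjusted p = 0.0123, 0.0120 and 0.00108). Slc11a2, the endosomal iron transporter DMT1, rose by 2.90, haem oxygenase Hmox1 by 2.54 and Slc39a14, the importer ZIP14, by 1.57 (limma adjusted p = 0.0111, 0.00698 and 0.00401). Spic, a factor of haem-handling macrophages, rose by 2.40, and Ncoa4, the ferritin autophagy receptor, by 1.11 (limma adjusted p = 0.00508 and 0.0155). Aco1, which encodes iron regulatory protein 1, fell by 0.91 on the log2 scale (limma adjusted p = 0.0267), while Ireb2, Bach1 and Steap3 were not called (-0.23, -0.48 and -0.82, limma adjusted p = 0.494, 0.0987 and 0.237). From LPS to LPS+MIC-1, the largest difference among the 70 genes was that of Il6ra, an IL-6 receptor chain, at -1.84 ± 0.82, followed by Slc11a2 at -0.98 ± 0.62 (limma adjusted p = 0.997 for both). Against control, LPS+MIC-1 livers had rises of 6.43 for Lcn2, 4.52 for Hp, 4.29 for Steap4, 3.68 for Hpx and 3.67 for Fgl1 (limma adjusted p = 0.00578, 0.00659, 0.0123, 0.000722 and 0.000476).

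**Figure D5:**
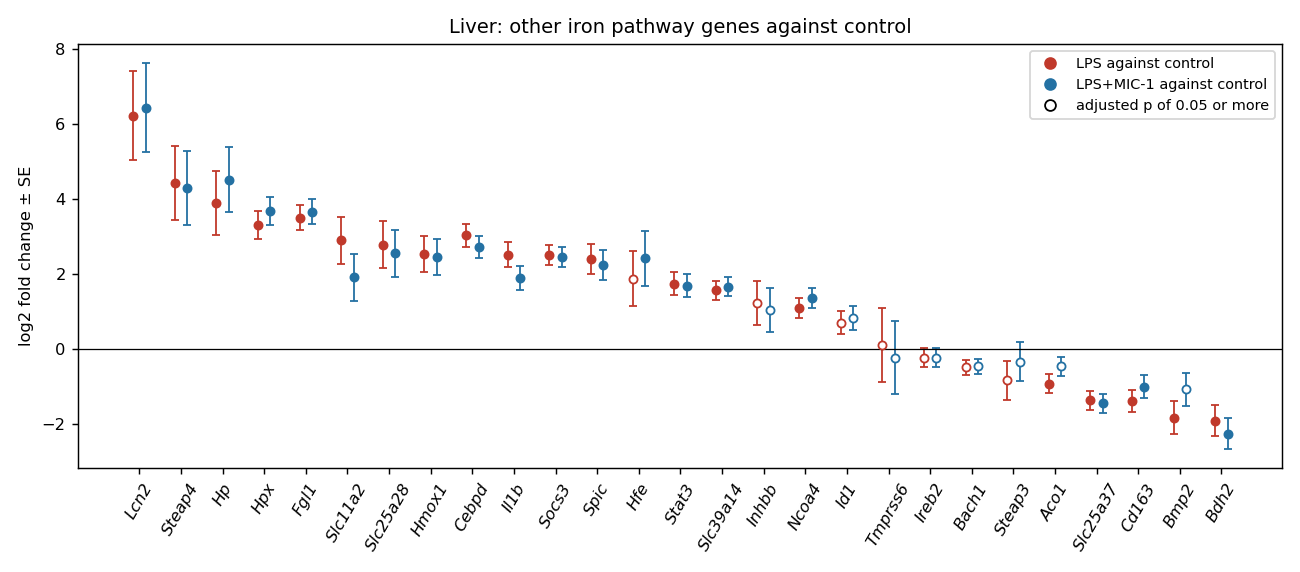
Log2 differences with their SE of 27 other iron pathway genes in liver, for LPS against control and LPS+MIC-1 against control, which share the 3 control livers. Open symbols have a limma adjusted p of 0.05 or more. Lcn2 is highest at 6.21 and 6.43, Hmox1 lies at 2.54 and 2.45, and Slc11a2 at 2.90 and 1.92.

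In macrophages, none of the 59 list genes was called between LPS and control with all 9 libraries, 13 (22%, 6 higher and 7 lower) between LPS+MIC-1 and LPS and 21 (35.6%, 12 higher and 9 lower) between LPS+MIC-1 and control. The shares over all genes were 0, 21.6 and 24.8%. When LPS library 2 was left out, the counts were 44 (74.6%), 32 (54.2%) and 41 (69.5%), against 75.2, 68 and 60.3% of all genes. Steap3, the endosomal ferrireductase that works with Tfrc, stood at 17.6, 16.9 and 16.6 FPKM in controls, at 19.6, 17.7 and 19.6 after LPS and at 6.09, 7.89 and 5.88 after LPS+MIC-1. It fell by 1.46 ± 0.13 on the log2 scale against LPS, and fell by 1.51 without LPS library 2 (limma adjusted p = 0.000719 and 2.53e-05). LPS library 2 lay next to the controls in this gene too, and every LPS library was above every LPS+MIC-1 library. Lrp1, the hemopexin-haem receptor, fell by 1.25 (limma adjusted p = 0.0151) and Slc39a14 rose by 0.70 (limma adjusted p = 0.0376) in the same comparison, and without LPS library 2 they differed by -1.60 and 0.90 (limma adjusted p = 1.97e-06 and 0.000278).

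Il6 stood at 0, 0.139 and 0 FPKM in control macrophages, at 5.45, 0.418 and 6.37 after LPS and at 59.0, 15.5 and 59.6 after LPS+MIC-1, and rose by 3.53 ± 0.81 between LPS+MIC-1 and LPS (limma adjusted p = 0.0210), or by 2.59 ± 0.53 without LPS library 2 (limma adjusted p = 0.00326). Cebpd and Socs3 also rose there, by 1.47 and 1.17 (limma adjusted p = 0.00646 and 0.0438), or by 1.76 and 1.41 without LPS library 2 (limma adjusted p = 2.52e-05 and 0.00609), while Stat3 was level at 21.6 to 26.4 FPKM in all libraries. Hmox1 stood at 179, 292 and 179 FPKM in controls, at 1492, 299 and 1412 after LPS and at 1167, 1274 and 1173 after LPS+MIC-1. It rose by 2.51 ± 0.57 from control to LPS+MIC-1 (limma adjusted p = 0.0170), as did Lcn2 by 8.20, Il1b by 6.61, Il6 by 6.15 and Blvrb, the biliverdin reductase, by 3.08 (limma adjusted p = 0.00749, 0.0163, 0.00217 and 0.00372). All 5 were also called without LPS library 2 (limma adjusted p = 7.22e-06 to 0.000268). Without LPS library 2, Hmox1 rose by 2.78 and Slc11a2 by 1.93 after LPS, and Hfe and Ireb2 fell by 1.89 and 0.85 on the log2 scale (limma adjusted p = 1.05e-05, 1.17e-05, 5.65e-06 and 0.00108). Tmprss6 and Inhbb were listed at 0 in all 9 macrophage libraries, and Bmp6, Spic and Steap4 were below the level tested. The neutrophil marker list summed to 690 to 756 FPKM after LPS+MIC-1, to 33.5, 4.96 and 43.6 after LPS and to 2.44 to 3.55 in controls. Of the 690 to 756 FPKM, S100a8 alone gave 651 to 718 and Mmp8 21.4 to 35.7, while Ngp, S100a9, Retnlg and Camp stayed below 1 FPKM in every library.

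The genes whose pattern was most like that of a member are given by Pearson correlation of log2(FPKM + 0.5) over the 9 libraries of a table. These libraries share the treatment groups. Library 2 stood apart from libraries 1 and 3 in every macrophage group and in both treated liver groups. For Hamp in liver the most similar genes were Mccc2 (0.983), Cps1 (0.980), Rarres1 (0.975), Slc13a2 (0.970) and Mpzl2 (0.962). For Slc40a1 in liver they were the sinusoidal endothelium marker Kdr (0.981), Chpt1 (0.976), Smarcd2 (0.975), Pth1r (0.963) and Pitrm1 (0.959). For Slc40a1 in macrophages they were G6pdx (0.994), Tcfec (0.992), Tigd2 (0.991), Ufd1l (0.991) and Ptpn5 (0.991), and G6pdx, which encodes glucose-6-phosphate dehydrogenase, ranged from 101 to 355 FPKM.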

How the data were processed

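RNA of 9 liver and 9 macrophage libraries was sequenced at BGI. The authors pseudoaligned reads with Kallisto 0.45.0 to a RefSeq transcript index of mm9, and the deposited FPKM values were made by the authors with DESeq2 1.20.0, scaled between the libraries of a table. Column names gave the treatment of all libraries, with 0 columns unmatched. The other deposited tables hold the authors' own comparisons (mean normalized counts, log2 fold changes, errors, p-values) and were not used.

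The 10 members and all gene lists were chosen with earlier results of these data known. log2(FPKM + 0.5) was fitted with limma 3.58.1 in R 4.3.3 (all 9 libraries of a table, eBayes with trend, genes with a mean FPKM above 1), with Benjamini-Hochberg adjustment over all genes. The fit was tested on simulated data with independent noise and, for macrophages, a spread taken without LPS library 2. That simulation does not cover the effect of LPS library 2 or the closeness of libraries 1 and 3. Depth was estimated from steps between low FPKM values, and 78.8 to 83.4% of those values lay within 0.1 of whole reads. Libraries of a group differed by more than sampling noise and were counted singly. Macrophage libraries 1 and 3 of a group were close, with a median variance of 1.98 to 2.84 times that of sampling. Macrophage pairs with library 2 gave 10.8 to 177 times. The macrophage p-values without LPS library 2 rest, for the LPS group, on that narrow spread between libraries 1 and 3. In liver, libraries 1 and 3 gave 6.36 times in the LPS group and 2.77 times in the LPS+MIC-1 group. Pairs with library 2 gave 26.5 to 60.2 times in those groups. In liver controls, libraries 2 and 3 were the closest pair, at 4 times. The liver refits without library 2 of both treated groups rest on the close libraries 1 and 3. An alternative averaged libraries 1 and 3 of each group. The study's macrophage heat map used 8 libraries without naming the one left out. Beyond the members, the text names 21 iron genes fixed by name, the 5 called list genes with the largest change in a comparison, and the 5 genes most correlated with a member. Genes named outside this rule (Bmpr1a, Bmp2, Il6ra) were chosen after their values were seen. Figures were drawn with matplotlib 3.10.9. Other settings of 14 kinds were listed, and 5 more were chosen after seeing the data.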

Additional observations from a re-analysis of the deposited data

Results flagged for a closer look

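For 5 members, every liver library moved one way and every macrophage library the other against the mean of the same comparison group. The share of all genes meeting this rule was not counted, so the 5 cannot be set against a background. The tables were normalised separately, the tissues differ in source, treatment and time, and the difference between them was not tested. From control to LPS, Hamp differed by -1.87 in liver and by 4.06 in macrophages on the log2 scale, with the macrophage library labelled LPS 2 at only 0.40 above the control mean. In the same comparison, Tfrc differed by 1.19 in liver and by -0.92 in macrophages.

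From LPS to LPS+MIC-1, Hamp differed by 1.26 in liver and by -3.10 in macrophages, and Slc11a1 by -0.50 and 1.04. Fth1 differed by 0.26 in liver and by -0.66 in macrophages, and its liver value turned to -0.033 with libraries rescaled to the same sum. Trf differed by 0.66 in liver, where LPS+MIC-1 library 2 was 0.01 above the LPS mean, and by -0.58 in macrophages. From control to LPS+MIC-1, Hamp differed by -0.62 in liver and by 0.96 in macrophages, and Trf by 2.30 and -0.38. None of the macrophage values in these pairs had a limma adjusted p below 0.05 with all 9 libraries. Without LPS library 2, those of Hamp (5.89, -4.94 and 0.96), Tfrc (-1.15), Slc11a1 (0.54) and Fth1 (-1.68) did, and those of Trf (-0.45 and -0.38) did not.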

How the results depend on the processing

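Over the settings tried, values of single members kept direction and side of the threshold in 1056 cases, gained a call in 93, lost one in 45 and changed direction in 33, and the cause was not tested. Counts of calls kept within 1.5 times in 302 cases and moved in 76. No paired analysis was possible because the columns carry no replicate numbers. The sum of Ftl1 and Ftl2 was not run, since the table lists no Ftl2. Depth limits the liver controls most (4340000 reads at the lowest).

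Counts of calls below are of members and then of other iron genes, with the share of all genes called in the same setting. Shares of all genes without overlap are given above only for all 9 libraries and, in macrophages, without LPS library 2. In macrophages from control to LPS, where 0 members and 0 other iron genes were called, array weights gave 7 and 50 (84.3% of all genes). The 8 libraries without LPS library 2 gave 7 and 43 when rescaled to the same sum (8 members not overlapping, against 5), 7 and 45 by median of ratios, and 4 and 28 with libraries 1 and 3 averaged. Of all genes, 82.8, 75.3 and 55.1% were called in these settings. Leaving out 1 library gave 0 to 7 members and 0 to 44 other genes, with 5 to 7 members not overlapping, and the upper ends were reached without LPS library 2. Without that library, 75.2% of all genes were called and 85.6% did not overlap. From LPS to LPS+MIC-1, where 1 and 13 were called and 2 members did not overlap, rescaling to the same sum gave 2 members, the pair of groups alone 5 other genes, array weights 8 and 42, a minimum log2 change of 1 gave 5 other genes (2 at an adjusted p below 0.01), and libraries 1 and 3 averaged gave 0 and 0. In that order, 16, 5.59, 77.4, 8.31 (3.87 at 0.01) and 0% of all genes were called. The 8 libraries gave 6 and 44 at the same sum, 7 and 32 by median of ratios (7 not overlapping in both) and 4 members with libraries averaged (8 not overlapping). Of all genes, 77.8, 68.4 and 43.1% were called in these settings. Leaving out 1 library gave 1 to 7, 5 to 32, and 2 to 7 not overlapping, where 7.4 to 68% of all genes were called. From control to LPS+MIC-1, where 2 and 21 were called, the pair of groups alone gave 4 and 41, array weights 8 and 52, the minimum change 11 other genes (6 at 0.01) and libraries averaged 0 and 0. In that order, 58.2, 77.5, 11.8 (5.59 at 0.01) and 0% of all genes were called. The 8 libraries gave 5 and 39 at the same sum, 5 and 41 by median of ratios and 4 members with libraries averaged. Of all genes, 63, 60.5 and 33.9% were called in these settings. Leaving out 1 library gave 2 to 5, 9 to 41, and 5 to 8 not overlapping, where 8.99 to 60.3% of all genes were called.

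In liver from control to LPS, where 9 and 32 were called, array weights gave 50 other genes, the stricter threshold 3 and 13 and libraries averaged 2 and 5. Of all genes, 73, 10.9 and 1.78% were called in these settings. Leaving out 1 library gave 5 to 9 and 17 to 41, and 5 members each without LPS library 1 or 3. These refits called 13.8 to 49% of all genes, with 16.4 and 13.8% without LPS library 1 and 3. From LPS to LPS+MIC-1, where 0 and 0 were called, array weights gave 5 and 23 (30.2% of all genes). Leaving out library 2 of both groups gave 3 and 2 (3.68% of all genes), with 6 members not overlapping. There, removal of a GC and length trend left 1 member not overlapping, against 2, and leaving out 1 library gave 2 to 4. From control to LPS+MIC-1, where 5 and 29 were called, array weights gave 51 other genes, the stricter threshold 18, and libraries averaged 2 and 9. Of all genes, 73.6, 13.5 and 7.02% were called in these settings.

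Directions turned as follows. With the same sum, macrophage Trf went to -0.31 after LPS and Cp to -0.17 from control to LPS+MIC-1. In the 8 libraries, Trf went to -0.68 after LPS and 0.14 from LPS to LPS+MIC-1, and Cp to -0.17. Cp in that last comparison also went to -0.024 with a pseudocount of 0.1 and to -0.28 with libraries averaged. In liver the same sum gave Ftl1 -0.26 after LPS, Hamp2 -0.019, Fth1 -0.033, Ftl1 -0.24 and Cp -0.26 from LPS to LPS+MIC-1, and Ftl1 -0.50 and Slc11a1 -0.035 from control to LPS+MIC-1. Libraries averaged gave Hamp2 -0.13 and Tfrc 0.041 from LPS to LPS+MIC-1. The GC and length trend gave Ftl1 -0.40, -0.058 and -0.45 in the 3 comparisons. Array weights gave Fth1 -0.072 and Slc40a1 0.33, and leaving out both library 2s gave -0.10 and 0.34. Leaving out 1 library gave, from LPS to LPS+MIC-1 in liver, -0.0036 to 0.082 for Cp, -0.057 to 0.14 for Ftl1, -0.34 to 0.66 for Hamp2 and -0.72 to 0.0035 for Tfrc. It gave -0.31 to 0.34 for liver Slc40a1 and -0.28 to 0.52 for macrophage Cp from control to LPS+MIC-1.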
